A study of Mus musculus with 12 samples.

Results

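Transcripts of the mitochondrial genome were examined in quadriceps muscle of dystrophic mice, on arrays that hold 65587 probe clusters. Members were the clusters that the platform annotation pairs with exactly 1 symbol starting with mt-. That rule found 2 genes among the 30412 clusters with 1 symbol: mt-Tk (cluster TC0M00000008.mm.1), the transfer RNA (tRNA) for lysine, and mt-Rnr1 (cluster TC0M00000002.mm.1), the 12S ribosomal RNA (rRNA) of the small mitochondrial ribosomal subunit. The mitochondrial chromosome of the mouse RefSeq annotation lists 37 genes, of which 22 encode tRNAs, 13 encode proteins and 2 encode rRNAs. The annotation lists the protein genes without the mt- prefix, so no protein gene was a member. For the comparison of tRNA with protein-coding genes, 5 clusters that carry 1 mitochondrial protein gene each by gene ID were set beside the members: ND2, ND3 and ND6 of complex I, and COX1 and COX2 of complex IV. A further 4 clusters pair several genes (mt-Rnr2 with ND1, ATP8 with ATP6 and COX3, ND4 with ND4L, and ND5 with CYTB), and 19 clusters share the ID stem of these clusters and have no gene in the annotation. No member had more than 1 cluster, so the choice of the brightest cluster never applied.

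The arrays measured total RNA from quadriceps of 6-week-old male utrn+/-;mdx mice on a C57BL/10 background. These mice lack dystrophin and carry 1 working copy of the gene for utrophin, a relative of dystrophin. The 4 groups were mice left untreated on normal chow, mice given spironolactone at 100 mg/kg per day with lisinopril at 20 mg/kg per day in pellets, mice given eplerenone at 200 mg/kg per day with lisinopril at 20 mg/kg per day in pellets, and mice given prednisolone at 1.5 mg/kg per day in drinking water. Treatment ran from 4 to 6 weeks of age. Spironolactone and eplerenone block the mineralocorticoid receptor, lisinopril inhibits angiotensin-converting enzyme, and prednisolone is a glucocorticoid. Each group had 3 biological replicates with 1 array each, and all 12 mice shared the dystrophic genotype, so no comparison with healthy muscle or with drug-free pellets was made. The labels do not say whether mice were littermates, so p-values measure the spread between these arrays.

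Mitochondrial DNA is transcribed from both strands into long RNAs that hold many genes end to end. Most of its protein and rRNA genes are separated by tRNA genes, and enzymes that cut out the tRNAs thereby also release the mRNAs and rRNAs. The proteins are core subunits of respiratory chain complexes and of ATP synthase, and muscle fibres, which use much ATP, are rich in them. The proteins that transcribe, cut, modify and translate mitochondrial RNA are encoded in the nucleus. In the RefSeq gene order the tRNA gene for lysine lies directly after COX2, which encodes a subunit of cytochrome c oxidase, and directly before ATP8 and ATP6, which encode subunits of ATP synthase.

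Values are given on the log2 scale of the deposited table, where 1 unit is a doubling on that scale. Array medians over the 30412 clusters lay between 5.70 and 5.81, and the highest value of each array between 19.91 and 19.93. Of all clusters, 1.27% to 1.34% per array lay above 16, the log2 ceiling of a 16-bit reading. The sources used here do not say how the processing gave such values, so folds hold on this scale only. Skeletal fibre genes were among the brightest on every array, with Acta1 (skeletal actin), Myh4 and Myl1 (myosin chains) at each array's highest value. Untreated arrays 2 and 3 stood apart in 8 neutrophil genes, whose median deviation from each gene's mean over the 12 arrays was 1.99 and 2.02, against -0.32 in untreated array 1 and -0.61 to -0.27 in the prednisolone arrays. In bulk muscle, fewer cells of a type and less RNA per cell cannot be told apart.

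The signal of the mt-Tk cluster rose with prednisolone. The sources used here do not give its probes, so mature tRNA and longer precursors could not be told apart. The log2 values of mt-Tk were 14.30, 13.89 and 13.53 in the 3 untreated mice, and 15.69, 15.43 and 15.85 in the 3 prednisolone mice. All prednisolone values lay above all untreated values, and the smallest gap between the groups exceeded the whole spread of either group. The difference of prednisolone minus untreated was 1.75 (SE 0.45, 95% interval 0.76 to 2.74), which is 3.37-fold on this scale. Its adjusted p was 0.044 in limma with Benjamini-Hochberg adjustment over 30412 clusters. In this comparison 6.39% of all tested clusters passed in either direction and 3.22% passed as higher, and in 13.4% every prednisolone array lay above every untreated array. By the study's own rule, a fold of at least 2, taken with an unadjusted p under 0.05, mt-Tk also counted, as did 1.57% of all clusters. Only 18 clusters, mt-Tk included, had a rise at least as large, which is 0.0592% of those tested. The exact two-sided permutation test of 3 against 3 arrays gave p = 0.1 for mt-Tk, the smallest p that this design allows.

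The call on mt-Tk rested on few arrays. With each of the 12 arrays left out in turn the difference stayed between 1.56 and 1.95, and the adjusted p in limma ranged from 0.0127 to 0.139, past the threshold of 0.05 in 6 of 12 cases. It was lost without untreated array 2 (0.114) or 3 (0.139), without prednisolone array 1 (0.122), 2 (0.108) or 3 (0.105), and without spironolactone plus lisinopril array 1 (0.0625). Against untreated array 1 alone, without the arrays with high neutrophil genes, the difference was 1.36 with an adjusted p of 0.455. That setting was chosen after seeing the data and assumes that the lone array varies as the other groups do.

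**Figure D1:**
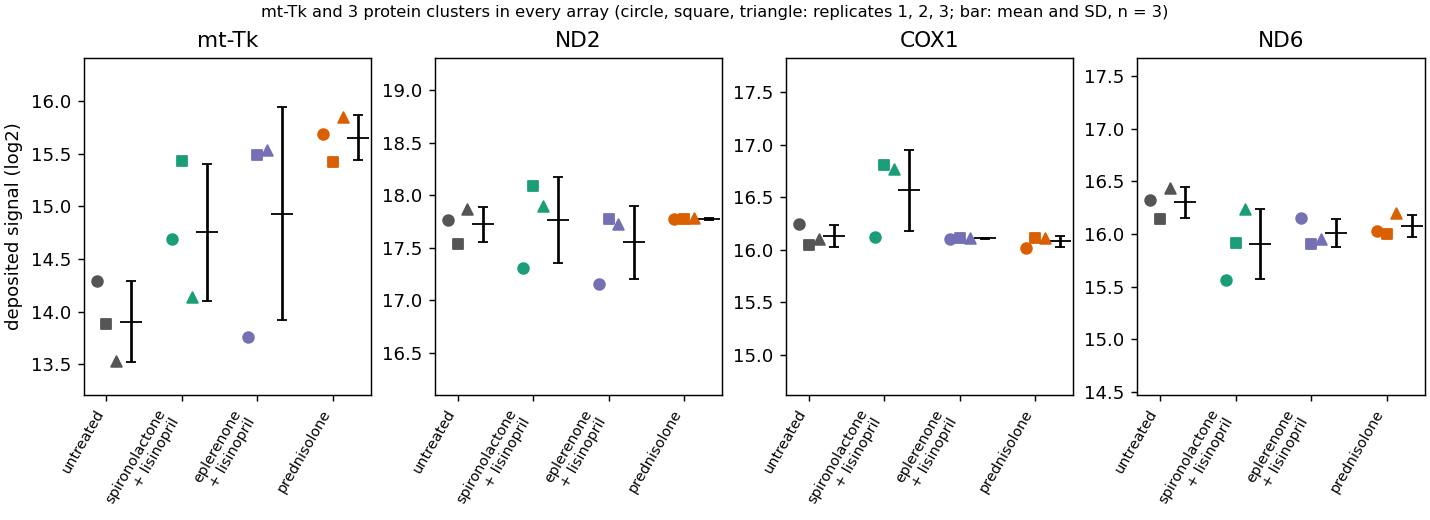
Log2 values of mt-Tk, ND2, COX1 and ND6 on each of the 12 arrays, by group; points are single arrays and bars are the group mean ± SD (n = 3). The prednisolone values of mt-Tk (15.43 to 15.85) lie above all untreated values (13.53 to 14.30), while those of ND2, COX1 and ND6 overlap between these groups.

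The combinations with lisinopril gave intermediate levels of mt-Tk that varied widely from mouse to mouse. With spironolactone plus lisinopril the values were 14.69, 15.43 and 14.14, and with eplerenone plus lisinopril 13.76, 15.49 and 15.54. In the first of these groups 1 mouse, and in the second 2 mice, reached the prednisolone range, while the remaining ones lay with or just above the untreated mice. The group mean ± SD (n = 3 each) was lowest in untreated mice (13.90 ± 0.38). It was 14.75 ± 0.65 with spironolactone plus lisinopril and 14.93 ± 1.01 with eplerenone plus lisinopril, and highest with prednisolone (15.65 ± 0.21). No neighbours in that order differed beyond their spread. Over all 12 arrays the widest gap in mt-Tk, of 0.74, parted 6 arrays between 13.53 and 14.69 from 6 arrays between 15.43 and 15.85. The upper arrays were all 3 of prednisolone, 2 of eplerenone plus lisinopril and 1 of spironolactone plus lisinopril.

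Against the same untreated arrays, mt-Tk differed by 0.85 with spironolactone plus lisinopril (95% interval -0.14 to 1.84, limma adjusted p = 0.367) and by 1.03 with eplerenone plus lisinopril (0.03 to 2.02, adjusted p = 0.357). Neither passed, and these comparisons share their controls with the prednisolone comparison. By a fold of at least 2 with an unadjusted p under 0.05, mt-Tk counted with eplerenone plus lisinopril (2.04-fold), as did 0.602% of all clusters. The share of all clusters past the threshold was 0.0822% for spironolactone plus lisinopril and 0.0296% for eplerenone plus lisinopril. Relative to prednisolone, mt-Tk differed by -0.90 with spironolactone plus lisinopril (-1.89 to 0.09, limma adjusted p = 0.353, with 0.822% of all clusters past the threshold). With eplerenone plus lisinopril it differed by -0.72 (-1.72 to 0.27, adjusted p = 0.576, with 0.608% past the threshold). Whether mt-Tk is lower with the combinations than with prednisolone is therefore not settled at this number of arrays. Spironolactone and eplerenone, given at different doses, differed by -0.18 in mt-Tk, with a 95% interval of -1.17 to 0.82 that includes differences in either direction of close to a doubling (limma adjusted p = 0.998). No cluster of the table with 1 symbol passed between these drugs (0%), and 1365 of the 30412 had an unadjusted limma p under 0.05. Over all clusters of the arrays that share was 4.69%, no more than this cut passes where nothing differs. Exact two-sided permutation p-values for mt-Tk were 0.2 and 0.3 for the combinations with spironolactone and eplerenone against untreated, 0.2 and 0.3 against prednisolone, and 0.8 between them.

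The 12S rRNA, mt-Rnr1, could not show a change on these arrays. Its values were 19.92, 19.91 and 19.91 in untreated mice, 19.93, 19.93 and 19.92 with spironolactone plus lisinopril, 19.92, 19.92 and 19.92 with eplerenone plus lisinopril, and 19.92, 19.92 and 19.91 with prednisolone. On all 12 arrays this was the highest value of the array, within a tolerance of 0.001. The spread over 12 arrays was 0.0197, and it follows each array's own maximum. The fitted difference of prednisolone minus untreated was 0.00329 (95% interval -0.13 to 0.14, limma adjusted p = 0.984), which describes the array maximum and not the rRNA.

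Other named mitochondrial clusters lay at the same ceiling. Of the 11 named clusters, 5 lay at the array maximum on all 12 arrays: mt-Rnr1 and the 4 clusters that pair several genes, among them the 16S rRNA mt-Rnr2. ND3, a complex I subunit, lay there on 11 of 12 arrays. COX2 lay at 14.09 to 14.11, well below the maximum, yet at a constant offset of -5.82 from it on 11 of 12 arrays, so its values too follow the array and not the gene. Over all clusters of the arrays, 62 lay at the maximum on at least 10 arrays, 6 of them mitochondrial. Of the genes on either side of mt-Tk, COX2 thus had a constant offset and ATP8 and ATP6 sat in a cluster at the ceiling, so the levels of its neighbours could not be compared with its own. COX1 and ND2 showed a constant offset on part of the arrays. COX1 had an offset of -3.81 on 6 arrays, among them prednisolone 2 and 3, and ND2 one of -2.15 on 3 arrays, among them prednisolone 1 and 2. On those arrays their values too follow the array maximum. Only mt-Tk and ND6 had no constant offset on any array.

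**Figure D2:**
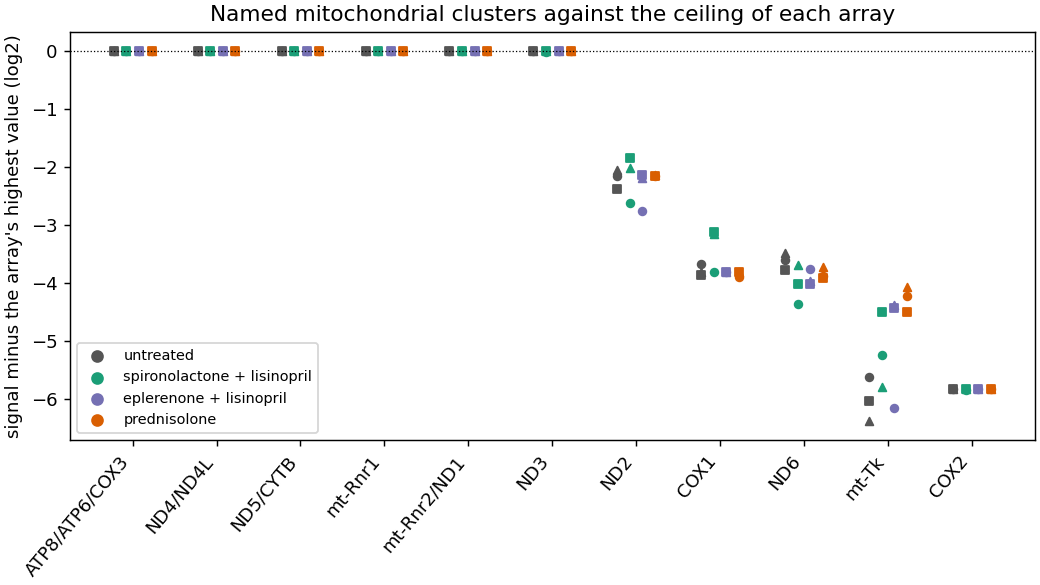
Log2 value minus the highest value of the same array for the 11 named mitochondrial clusters on the 12 arrays; 0 is the array maximum. The clusters of both rRNAs, ND3 and the clusters that pair several genes lie at 0, COX2 lies at a constant -5.82, and mt-Tk spreads over 2.32 log2 units.

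ND2, a core subunit of complex I, did not pass in any comparison. Its values were 17.77, 17.54 and 17.87 untreated and 17.77, 17.77 and 17.78 with prednisolone, where the difference was 0.05 (95% interval -0.40 to 0.50, limma adjusted p = 0.93). Untreated array 1 and prednisolone arrays 1 and 2 are those with the constant offset, so this difference says little about the gene. With spironolactone plus lisinopril ND2 read 17.30, 18.09 and 17.90, and with eplerenone plus lisinopril 17.15, 17.77 and 17.73. The groups overlapped, and the lowest arrays were replicate 1 of each combination. Differences from untreated were 0.04 with spironolactone plus lisinopril and -0.17 with eplerenone plus lisinopril.

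COX1, the catalytic subunit of complex IV, stood out on only 2 arrays. It read 16.25, 16.04 and 16.10 untreated, 16.10, 16.11 and 16.11 with eplerenone plus lisinopril, and 16.02, 16.11 and 16.11 with prednisolone. With spironolactone plus lisinopril the values were 16.12, 16.81 and 16.77, so that replicates 2 and 3 lay above the other 10 arrays, which spanned 16.02 to 16.25. Replicate 1 of this group had the same constant offset from its array maximum as 5 of those arrays. The difference of this group from untreated was 0.43 (95% interval 0.10 to 0.77, limma adjusted p = 0.228). It was 0.49 above prednisolone (limma adjusted p = 0.152) and 0.46 above eplerenone plus lisinopril (limma adjusted p = 0.998), and none of these passed. Prednisolone minus untreated was -0.05 for COX1 (limma adjusted p = 0.895), a difference that rests in part on values at the constant offset.

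ND6 is the protein gene that lies on the other strand of the mitochondrial genome from the rest, and it too encodes a complex I subunit. Its values were 16.32, 16.14 and 16.44 untreated, 15.56, 15.91 and 16.24 with spironolactone plus lisinopril, 16.16, 15.91 and 15.95 with eplerenone plus lisinopril, and 16.03, 15.9999 and 16.20 with prednisolone. Every treated group had a lower mean than the shared untreated group, but all overlapped it. The differences from untreated were -0.40 with spironolactone plus lisinopril (limma adjusted p = 0.257), -0.29 with eplerenone plus lisinopril (adjusted p = 0.435) and -0.22 with prednisolone (95% interval -0.56 to 0.11, adjusted p = 0.45). None of the 5 protein clusters passed in any of the 6 comparisons, among which COX2 and ND3 had no room to do so and COX1 and ND2 had it on part of the arrays.

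**Figure D3:**
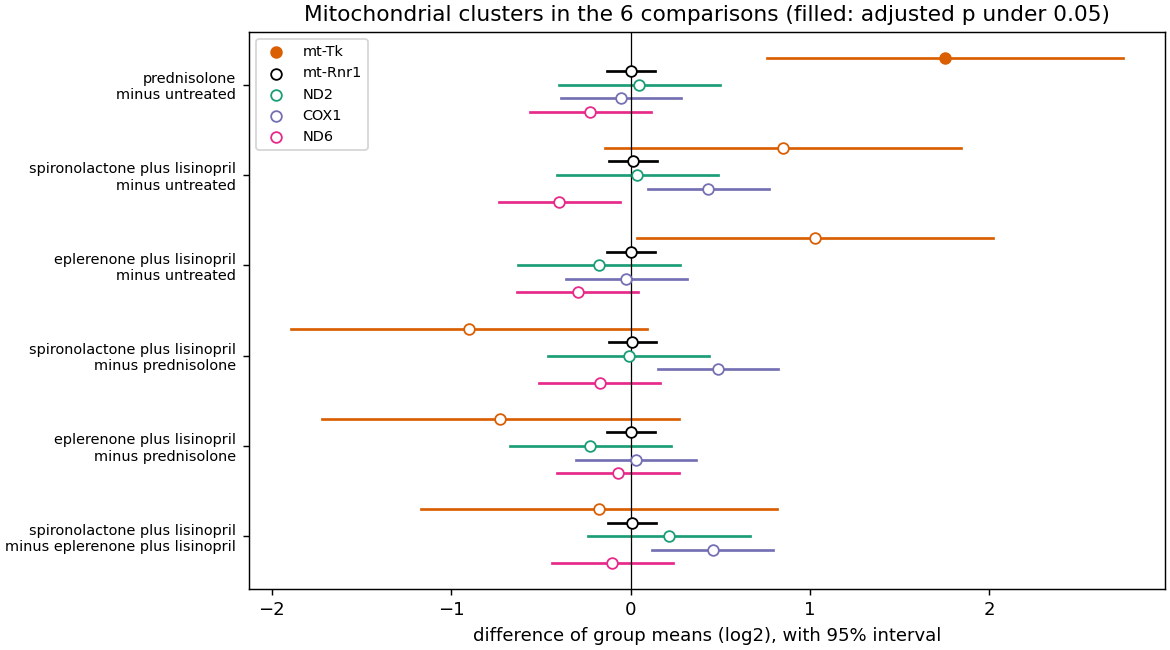
Log2 differences between groups for mt-Tk, mt-Rnr1, ND2, COX1 and ND6 in the 6 comparisons, with 95% intervals; filled points have a limma adjusted p under 0.05. Only mt-Tk in prednisolone minus untreated (1.75) is filled, and the points of mt-Rnr1, whose values sit at the array maximum, lie near 0.

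The tRNA and the protein genes were then set beside each other array by array, as deviations from each cluster's own mean over the 12 arrays. ND6 was used first, since it alone of the protein clusters had no constant offset, a choice made after seeing the data. It is 1 gene, on the other strand from the protein genes beside mt-Tk, so RNA class and strand cannot be told apart here. In untreated mice mt-Tk lay at -0.91 ± 0.38 and ND6 at 0.23 ± 0.15 (mean ± SD, n = 3). With prednisolone mt-Tk lay at 0.84 ± 0.21 and ND6 at 0.01 ± 0.11. The deviation of mt-Tk minus that of ND6 was -0.76, -0.997 and -1.65 in the untreated mice and 0.92, 0.69 and 0.91 in the prednisolone mice. The values of these groups did not overlap. With spironolactone plus lisinopril it was 0.38, 0.78 and -0.84, and with eplerenone plus lisinopril -1.13, 0.84 and 0.85. In each combination 2 mice were thus positive and 1 lay within the untreated range. Against the median deviation of ND2, COX1 and ND6 the untreated values were -0.58, -0.76 and -1.44 and the prednisolone values 0.92, 0.69 and 0.96. That median was the COX1 value on all 3 eplerenone plus lisinopril arrays and the ND2 value on 7 others, clusters that partly follow the array maximum, so it is no measure of steady protein-coding transcripts. No test was made on either score, which is built from the member and its comparators.

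The residual SD of mt-Tk within groups was 0.64, above that of 99.3% of all clusters, against a median of 0.163 over the clusters tested. A difference in mt-Tk therefore carried a wider error than the same difference in nearly any other cluster, and its SE of 0.45 compares with a median SE of 0.129.

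The 19 clusters with the same ID stem and no gene were followed in a fit over all 65587 clusters. None passed in any comparison. In prednisolone minus untreated 5 of 19 had an unadjusted limma p under 0.05, as did 16.9% of all clusters, and between the combinations 4 of 19, as did 4.69% of all clusters. In the same fit 2.93% of all clusters passed after adjustment in prednisolone minus untreated, 0.0168% of all clusters with spironolactone plus lisinopril and 0.0122% with eplerenone plus lisinopril against untreated, 0.175% and 0.192% against prednisolone, and 0% between the combinations. Some varied even more than mt-Tk. The cluster TC0M00000023.mm.1 lay between 6.66 and 8.17 on 7 arrays and between 10.82 and 12.93 on 5, and TC0M00000024.mm.1 between 8.32 and 11.07 on the same 7 and between 13.33 and 14.95 on the same 5. The high arrays were untreated 1 and 3, spironolactone plus lisinopril 2 and 3, and prednisolone 3, and all 3 eplerenone plus lisinopril arrays were low. Every spironolactone plus lisinopril value of TC0M00000023.mm.1 lay above every eplerenone plus lisinopril value, as in 4.36% of all clusters, by a mean of 4.01 (limma adjusted p = 0.997). Eplerenone plus lisinopril minus untreated was -3.81 for this cluster (95% interval -7.34 to -0.28, limma adjusted p = 0.423). The arrays high in both clusters were not those with high mt-Tk, of which only spironolactone plus lisinopril 2 and prednisolone 3 were among them. Of the 19, 5 lay higher on every prednisolone than every untreated array, and 1 lay lower. Over clusters with 1 symbol 13.4% lay higher and 26.7% either way. The largest rise of the 19 was 1.02, in TC0M00000014.mm.1, which read 13.98, 13.44 and 13.96 untreated and 14.75, 14.78 and 14.90 with prednisolone. Unlike mt-Tk, its mean with spironolactone plus lisinopril lay below untreated (13.39 against 13.79). TC0M00000015.mm.1 read 7.83, 8.33 and 7.93 untreated and 8.95, 8.94 and 9.03 with prednisolone. With eplerenone plus lisinopril it read 7.36, 9.04 and 8.87, low on replicate 1 as mt-Tk was. The genes of these clusters are not named in the annotation used here.

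**Figure D4:**
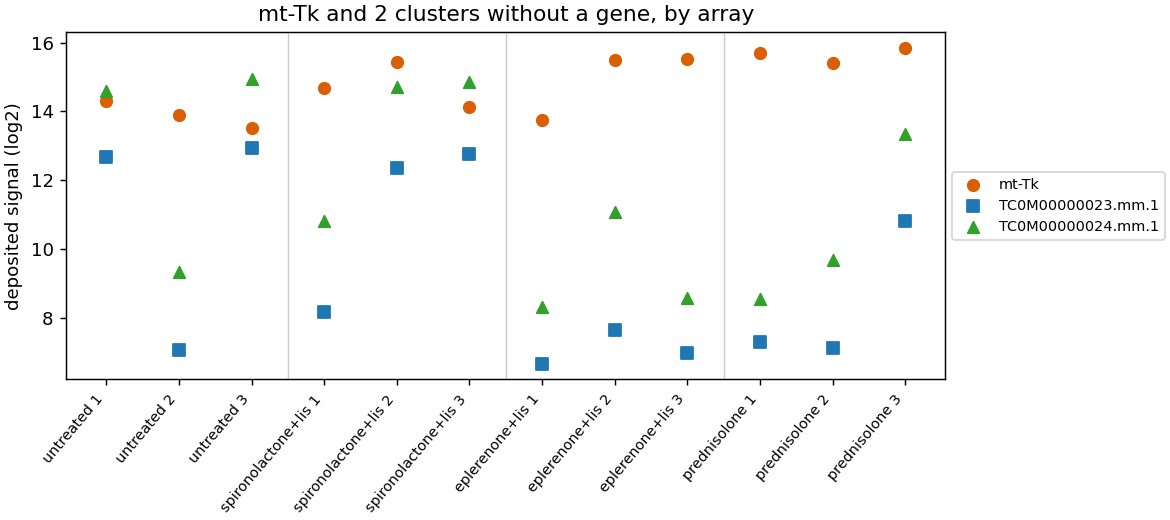
Log2 values of mt-Tk and of the unnamed clusters TC0M00000023.mm.1 and TC0M00000024.mm.1 on each array, by group and replicate. Both unnamed clusters are high on the same 5 arrays, drawn from 3 groups and none from eplerenone plus lisinopril, while mt-Tk is highest on the prednisolone arrays and on 3 arrays of the lisinopril combinations.

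The nuclear genes that serve the mitochondrial genome were read from 6 lists of 145 measured genes in all, chosen with earlier results of these data known. With prednisolone 16 were higher and 1 was lower than untreated, 11.7% against the 6.39% of all tested clusters. In all 17 the groups did not overlap, which adds no support, since these genes were picked by their call in the same contrast. Over all tested clusters, called or not, the groups did not overlap in 26.7%. The count moved with the arrays used: it was 5 to 23 with each array left out in turn and 1 against untreated array 1 alone. Taken singly, Slc25a36, Fastk, Ndufv1, Cyc1 and Ppargc1b passed in all 12 fits with an array left out, and the other 12 genes were lost in at least 1. Fars2 and Atp5b passed in 2 of 12 such fits, Hsd17b10 in 3 and Mettl17 in 5.

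Of 21 measured genes for mitochondrial transcription and maintenance of mitochondrial DNA, 1 passed as higher with prednisolone and none as lower, with a list median of 0.08 against -0.0132 over all clusters. It was Slc25a36, a carrier that brings pyrimidine nucleotides into mitochondria, which read 9.59, 9.15 and 9.16 untreated and 10.24, 10.09 and 9.89 with prednisolone (difference 0.77 ± 0.13 SE, limma adjusted p = 0.00902). Polrmt, the mitochondrial RNA polymerase, and Tfam, which packages mitochondrial DNA and opens its promoters, differed by 0.07 (adjusted p = 0.592) and 0.24 (adjusted p = 0.155) in limma and did not pass.

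Of 30 genes for processing, maturation and decay of mitochondrial RNA, 4 were higher with prednisolone and none lower, with a median of 0.11. Fastk, which binds the ND6 mRNA, read 9.47, 9.45 and 9.32 untreated and 10.11, 10.19 and 10.02 with prednisolone (0.70 ± 0.12 SE, limma adjusted p = 0.00883). Ptcd3, a small-subunit ribosomal protein that binds RNA, rose by 0.52 (adjusted p = 0.0208), and Mettl17, a factor for assembly of the mitochondrial ribosome, by 0.35 (adjusted p = 0.0393). Hsd17b10, a subunit of the enzyme that cuts the 5′ ends of mitochondrial tRNAs, rose by 0.49 (limma adjusted p = 0.0437, up to 0.134 with an array left out). The other subunits of that enzyme, Trmt10c and Prorp, read -0.29 (limma adjusted p = 0.103) and 0.09 (adjusted p = 0.562). Elac2, which cuts the 3′ ends, differed by 0.26 (limma adjusted p = 0.115), and Trnt1, which adds the terminal CCA, by -0.10 (adjusted p = 0.594). Lrpprc, which stabilises mitochondrial mRNAs, differed by 0.26 (limma adjusted p = 0.188).

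Among 19 genes for tRNA modification, 1 fell with prednisolone and none rose, with a median of -9.3e-05. This was Yrdc, which makes the precursor of a threonylcarbamoyl mark next to the anticodon of certain tRNAs. It read 7.15, 7.34 and 7.34 untreated and 6.51, 6.81 and 6.78 with prednisolone (-0.58 ± 0.11 SE, limma adjusted p = 0.016). Mto1, Gtpbp3 and Trmu, which together modify the wobble base of tRNAs such as that for lysine, differed by 0.11, 0.23 and 0.29 (limma adjusted p = 0.585, 0.133 and 0.0844).

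The synthetase list held 21 measured genes: aminoacyl-tRNA synthetases, which load tRNAs with amino acids, and Gatb, Gatc and Qrsl1, which are not synthetases. Of these genes 1 was higher with prednisolone, with a median of 0.12. Fars2, which loads phenylalanine, read 8.66, 8.67 and 8.52 untreated and 8.90, 8.93 and 8.87 with prednisolone (0.28 ± 0.07 SE, limma adjusted p = 0.0411, up to 0.147 with an array left out). Kars, which loads lysine onto the cytosolic and the mitochondrial tRNA, differed by 0.36 ± 0.12 SE and did not pass (limma adjusted p = 0.109). Kars and the other unpassed genes named with prednisolone were picked for their known roles and lie outside the rule for named genes.

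Nuclear subunits of the complexes that also hold mitochondrial gene products had the largest median of the 6 lists, 0.40, with 6 of 32 higher and none lower. Ndufv1, the complex I subunit that takes electrons from NADH, read 10.86, 10.63 and 10.89 untreated and 11.56, 11.65 and 11.49 with prednisolone (0.77 ± 0.10 SE, limma adjusted p = 0.00375). Cyc1, cytochrome c1 of complex III, read 12.06, 11.96 and 11.93 untreated and 13.05, 12.95 and 12.64 with prednisolone (0.90 ± 0.14 SE, limma adjusted p = 0.00586). Both genes had no overlap between these groups. The complex I subunits Ndufs1 and Ndufa9 rose by 0.71 and 0.62, Cox5a of complex IV by 0.56 and Atp5b of ATP synthase by 0.32 (limma adjusted p = 0.0313, 0.0134, 0.0327 and 0.0465). Of the mitochondrial subunits of these complexes, only ND6 had values free of the array maximum on every array, and it differed by -0.22 without passing, as given above.

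Markers of mitochondrial abundance outside the respiratory chain had 4 of 22 higher and none lower, with a median of 0.21. Over the list the differences ran from -0.41 for Ppargc1a (limma adjusted p = 0.394) to 0.79 for Mfn2. Ppargc1b, a coactivator of mitochondrial gene programmes, read 7.83, 7.65 and 7.35 untreated and 8.37, 8.41 and 8.36 with prednisolone (difference 0.76, limma adjusted p = 0.00839). Cs, the first enzyme of the citric acid cycle, rose by 0.67, Mfn2, which fuses outer membranes, by 0.79, and Timm44, which helps import proteins, by 0.52 (limma adjusted p = 0.0315, 0.0203 and 0.0305).

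**Figure D5:**
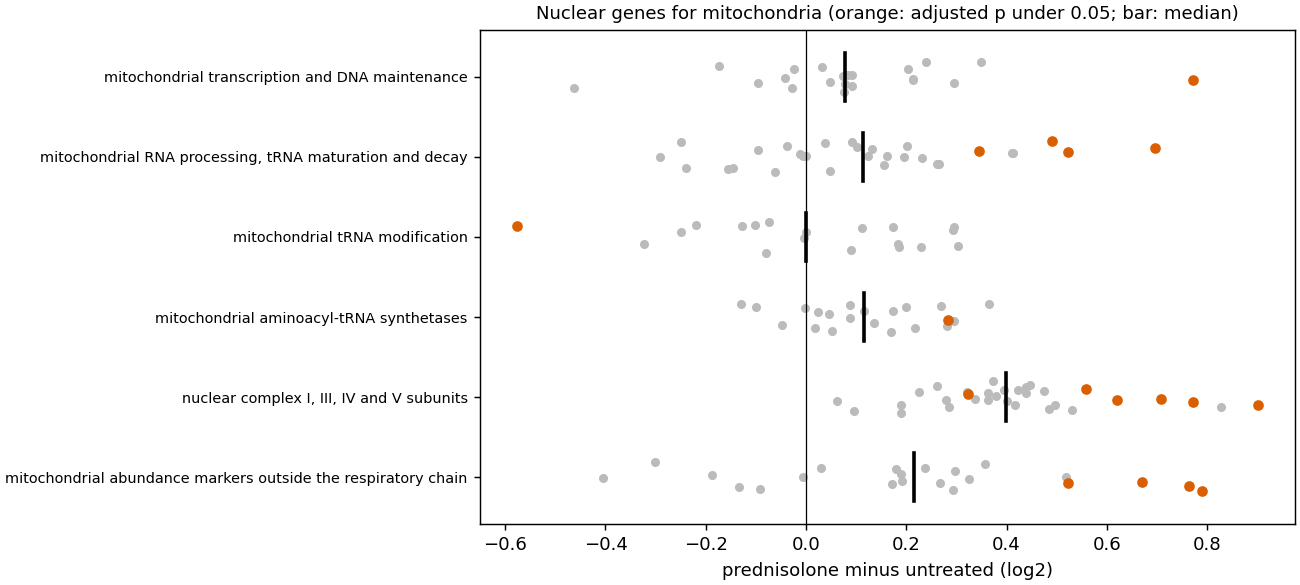
Log2 differences of prednisolone minus untreated for the measured genes of the 6 nuclear lists; each point is a gene, filled where the limma adjusted p is under 0.05, and the line is the list median. The nuclear complex subunits have the highest median (0.40), and Yrdc is the only filled point below 0.

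No gene of these lists passed with either lisinopril combination against the shared untreated arrays. The list medians there were 0.14 with spironolactone plus lisinopril and 0.26 with eplerenone plus lisinopril for the complex subunits. For the synthetase list they were 0.15 with each. In the complex list 4 and 14 of 32 genes had an unadjusted limma p under 0.05, against 16.2% and 13.4% of all tested clusters. Cyc1 had the smallest unadjusted p of that list in both, with differences of 0.50 (limma adjusted p = 0.178) and 0.73 (adjusted p = 0.118). Ppargc1b, of the abundance markers, differed from untreated by 0.74 (limma adjusted p = 0.0755) and 0.62 (adjusted p = 0.145), close to its 0.76 with prednisolone. Ptcd3 differed by 0.42 and 0.38 (limma adjusted p = 0.168 and 0.237), and Yrdc by -0.50 with eplerenone plus lisinopril (adjusted p = 0.162). Ndufv1 was 0.54 lower with spironolactone plus lisinopril than with prednisolone, the only list gene past the threshold there (difference -0.54, limma adjusted p = 0.0438). That call was lost with array medians made equal, over all clusters, with only the 6 arrays compared, with the replicate block and in an unmoderated model, and the count of list genes there was 0 in 9 of 12 fits with an array left out. No list gene passed between eplerenone plus lisinopril and prednisolone, or between the combinations.

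Other short RNAs, transcribed in the nucleus, were read in the same contrast, in which 6.39% of all tested clusters passed. Of 66 small nucleolar and Cajal body RNAs, none rose and 1 fell with prednisolone (Snord91a, -0.52), with a median of -0.06. Of 69 clusters of 5S rRNA none passed, with a median of 0.01. Of 15 small nuclear and signal recognition particle RNAs none passed in limma, although 9 had an unadjusted p under 0.05, as did 21.6% of all tested clusters, and their median was -0.58. Rn7sk of this list lay at the array maximum on 12 arrays and could not show a change. Under symbols of microRNA genes, which can include their longer precursors, 7 of 582 were higher and 13 lower, with a median of -0.07. That is a smaller share than over all tested clusters.

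Some genes on the lists of cell type markers passed in the same contrast, in which 6.39% of all tested clusters passed. Of 10 macrophage markers 4 were lower with prednisolone, and their median deviation was 0.08 to 0.86 on untreated and -0.55 to -0.08 on prednisolone arrays. Of 8 neutrophil markers 2 were lower and none higher. Of 14 skeletal fibre markers 2 were higher, Cacna1s by 1.02 and Ryr1 by 0.75, both channels of excitation and contraction coupling. Acta1 and Myh4 of this list lay at the array maximum on 12 arrays and Atp2a1 on 11. Mylpf had a constant offset on 11, so values of these genes follow the array and could not show a change. The fibre list's median deviation was -0.17 to 0.00485 untreated and 0.03 to 0.08 with prednisolone. Of 7 fibroblast markers Col1a1 and Col3a1, fibrillar collagens, each fell by 0.66 and Fbln1 rose by 0.68. Of 8 endothelial markers only Cdh5 passed, falling by 1.48 (list median -0.49). Of 6 T and B cell markers only Cd3e passed, falling by 0.40 (list median -0.30). Of 5 Schwann cell markers only Pmp22 passed, falling by 0.58 (list median -0.03). On the list of 8 smooth muscle genes only Des passed, rising by 0.52 (list median 0.02). A single call on a list does not speak for its cell type. None of 10 slow fibre, 7 adipocyte or 3 erythroid markers passed, with medians of 0.37, 1.07 and -0.08. The part of cell composition in the values of mt-Tk and of the nuclear lists was not tested.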

How the data were processed

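The deposited table holds log2 values that the authors made with RMA, per the submitters' processing notes, which also name Affymetrix Expression Console and Transcriptome Analysis Console without versions. Per the labels' protocols, RNA was isolated with TRIzol, treated with DNase, cleaned on RNeasy columns, amplified from 100 ng and labelled with the GeneChip WT PLUS kit. The sources used here name no genome build and no details of normalization, so no coordinates are printed. Symbols came from the platform annotation, updated through gene IDs (827 symbols, 22630 IDs matched); 2118 clusters had several symbols and 33057 none. Gene order came from RefSeq (GRCm38.p6). Group means were fitted to the 30412 clusters with 1 symbol by limma 3.58.1 (R 4.3.3) over the whole set of 12 arrays (8 residual and 2.94 prior degrees of freedom, median SE 0.129), the 6 pairwise contrasts were adjusted by Benjamini-Hochberg, and the threshold was 0.05. The authors' design selected a fold of 2, which was run as an alternative. The fit was tested on simulated data. Members were all named, and of each nuclear list up to 6 genes past the threshold by smallest p (of the lists with none past it, examples among the 2 smallest); markers are given as counts. The members and lists were chosen with earlier results of these data known. The number of arrays limits the precision.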

Additional observations from a re-analysis of the deposited data

How the results depend on the processing

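No alternative turned the direction of a called value. Averaging the clusters of a symbol and leaving out members above 16 repeat the main fit for mt-Tk, so their passes add nothing. The difference of mt-Tk between prednisolone and untreated lay between 1.36 and 1.80 over 15 settings and passed in 11, those repeats included. It was 1.75 but no longer past the threshold in a fit over all clusters (limma adjusted p = 0.0607) and in an unmoderated linear model (adjusted p = 0.107), and 1.36 against untreated array 1 alone (adjusted p = 0.455); the count of members past the threshold was then 0 in place of 1, and 0 to 1 with an array left out, when the difference ran from 1.56 to 1.95. Replicate numbers do not pair the arrays: same-numbered arrays of different groups correlated at -0.237 to 0.157 in their deviations, others at -0.295 to 0.267, and 3 of 12 arrays correlated best with their own number. With the replicate number as a block the difference was 1.75 (limma adjusted p = 0.0677), with 0 members and 17 nuclear list genes past the threshold for prednisolone against untreated, and 0 list genes for spironolactone plus lisinopril against prednisolone. By a fold of 2 with an unadjusted limma p under 0.05, mt-Tk also counted with eplerenone plus lisinopril (1 member, against 0.602% of all clusters). The 17 nuclear list genes for prednisolone against untreated became 10 over all clusters, 4 with only the 6 arrays compared, 11 unmoderated, 0 by the fold rule, 1 against untreated array 1 alone and 5 to 23 with an array left out. The 1 list gene for spironolactone plus lisinopril against prednisolone became 0 with array medians made equal, over all clusters, with the 6 arrays compared, by the fold rule and unmoderated, 5 with array weights, and 0 to 2 with an array left out. For eplerenone plus lisinopril against prednisolone the 0 became 1 with quantile normalization, cyclic loess, dim clusters left out or array weights, and 0 to 1 with an array left out; for either combination against untreated it became 0 to 3. With an array left out, the median difference of the protein clusters ran from -0.12 to 0.27 for spironolactone plus lisinopril against untreated, from -0.17 to 0.22 against prednisolone and from 0.015 to 0.44 against eplerenone plus lisinopril, without replicate 1 of the spironolactone group at the upper ends. With ND6 alone, chosen after seeing the data, it was -0.40 in place of 0.04 for spironolactone plus lisinopril against untreated and -0.10 in place of 0.21 against eplerenone plus lisinopril; values of ND2 and COX1 partly follow the array maximum. COX1 passed for spironolactone plus lisinopril against prednisolone without that array (0.71, limma adjusted p = 0.0208). Where a setting other than a left-out array moved a count, the cause was not tested.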
